A study of Mus musculus with 6 samples.

Results

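The Schlafen genes were followed in whole mouse embryos that carry a STAT3 allele named STAT3-K177K180R in the labels. All gene probes whose accession maps to Slfn1, Slfn2, Slfn3, Slfn4, Slfn5, Slfn8 or Slfn9 were taken, which gave 9 probes of 7 genes, out of 20659 named genes and 39429 probes on the array. The family was chosen by the measured levels of Slfn9, which was low at both of its probes in homozygous embryos, so the difference between homozygous and wild-type embryos is given for every member as a description, with no test. Slfn9 is likewise described, and not tested, wherever homozygous embryos enter. The remaining comparisons were tested.

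RNA from 6 embryos at 12 days was measured on 6 arrays, 1 embryo per array. There were 2 wild-type embryos (STAT3wt/wt), 2 heterozygous embryos (STAT3mut/wt) and 2 homozygous embryos (STAT3mut/mut), and the labels place the genotypes in the same womb without naming litters or parents for any embryo. No treatment was given beyond the allele, and the labels name neither the strain nor how the allele was made. The extraction protocol speaks of tumor tissue and 1 field calls the wild type a mutant, and the titles were followed. The arrays read RNA levels and not the altered residues, so no array value checks a genotype. Because whole embryos were used, fewer cells of a type and less RNA per cell cannot be told apart in any value below.

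Schlafen proteins are a mammalian family named after the German word for sleep, because forced Slfn1 expression holds thymocytes in a resting state. The short members Slfn1 and Slfn2 and the intermediate members Slfn3 and Slfn4 lack the helicase-like part that the long members Slfn5, Slfn8 and Slfn9 carry. Many members are induced by type I interferon, whose signal runs through JAK kinases, while STAT3 is the main transcription factor of the interleukin-6 family of cytokines. The mouse genes lie side by side on chromosome 11.

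The promoters of Slfn9 and Slfn8 are shown first, since these neighbouring genes have closely related promoters and yet their probes did not move alike. The Slfn8 probe was faint, which limits that comparison. The RefSeq table (GRCm38.p6) gives the 250 bases before the start of Slfn9 at chr11:82991831-82992080 and those of Slfn8 at chr11:83020811-83021060, both on the minus strand and printed 5′ to 3′ along the gene. Capitals mark a match to the core of an interferon-stimulated response element, searched as GAAA, any 2 bases and GAAA again, which is read here on the opposite strand.
Slfn9: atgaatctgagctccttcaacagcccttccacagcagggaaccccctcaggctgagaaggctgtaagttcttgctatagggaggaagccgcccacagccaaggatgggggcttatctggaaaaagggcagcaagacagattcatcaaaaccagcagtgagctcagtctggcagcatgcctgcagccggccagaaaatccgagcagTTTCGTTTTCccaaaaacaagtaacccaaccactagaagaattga
Slfn8: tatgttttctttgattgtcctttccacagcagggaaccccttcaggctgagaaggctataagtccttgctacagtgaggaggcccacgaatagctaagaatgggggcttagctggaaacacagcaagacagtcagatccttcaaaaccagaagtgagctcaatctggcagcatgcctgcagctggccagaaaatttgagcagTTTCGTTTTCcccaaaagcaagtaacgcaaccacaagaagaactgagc
The match begins 45 bases before the start of Slfn9 and 48 bases before that of Slfn8, with the same letters in both. Aligned end to end, the pair were identical at 210 of 262 columns (80.2%), whereas the other 20 pairs of members shared 45.5% to 53.4%. Searched on both strands over the 250 bases, this core was found in 3 of the 7 members, the third being Slfn5 with its match 155 bases before the start, and in 978 of 32851 RefSeq promoter windows (2.98%). TTCNNNGAA, the core of the element that STAT dimers bind, was found in none of the 7 members and in 2306 windows (7.02%), which says only that these letters are not in these windows.

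The 3 genotypes were compared on the log2 scale after the 75th percentile of each array was subtracted, so a value of 0 is the level of that percentile and each step of 1 is a doubling. A probe was tested when it was well above background, by the scanner software's flag, on both arrays of at least 1 genotype. This held for 29832 probes, and a difference was called when limma's Benjamini-Hochberg adjusted p over all of them was below 0.05. The share of probes well above background was 75.4% and 76.2% on the wild-type arrays, up to 77.3% on the heterozygous arrays, and 70.7% and 73.4% on the homozygous arrays. The 75th percentile signal was 957 to 1176 against 723 to 787, and the median raw signal of negative control spots was 26 to 27 against 43.5 to 48. Per the scan dates in the headers, the homozygous arrays shared 1 scan and the other arrays another. These scans are taken here as slides. The effect of the slide or scan and that of the homozygous genotype therefore cannot be told apart. Each genotype had 2 arrays, and the p-values measure the spread between them. The array's probe letters were not used here. Slfn8 and Slfn9, and Slfn3 and Slfn4, are close copies of each other, so how much RNA of the one a probe for the other takes up is uncertain.

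Slfn9, a long member of the family, was at like levels in wild-type and heterozygous embryos and was far lower in both homozygous embryos. At probe A_55_P2110537 the normalized log2 level was 1.31 and 1.07 in wild-type, 1.43 and 1.22 in heterozygous, and -2.35 and -3.83 in homozygous embryos. On the linear scale these were signals of 2368 and 2071, 2993 and 2748, and 154 and 50.7. The 4 embryos with at least 1 wild-type allele lay together, and both homozygous embryos lay far below all of them. The difference between homozygous and wild-type embryos was -4.28 ± 0.44 (log2, standard error), or 19.5-fold lower. Against the wild-type mean, homozygous embryo 1 was 11.7-fold lower and homozygous embryo 2 was 32.5-fold lower, so the pair differed from each other more at this probe than at the second.

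The second Slfn9 probe, A_55_P2117649, also set both homozygous embryos apart. Its log2 level was -1.05 and -1.06 in wild-type, -0.93 and -1.20 in heterozygous, and -4.29 and -4.53 in homozygous embryos. The difference between homozygous and wild-type embryos was -3.35 ± 0.16 (10.2-fold lower), with 9.37-fold in embryo 1 and 11.1-fold in embryo 2. With the normexp background correction the differences were smaller, -2.09 at this probe and -3.51 at the first. Both probes stayed well above background in homozygous embryos. The raw spot medians there were 206 and 102.5 at the first probe and 89.5 and 85.0 at the second, against 43.5 and 48 for negative controls on the same arrays. A low signal above the controls thus remained at both Slfn9 probes in both homozygous embryos.

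**Figure D1:**
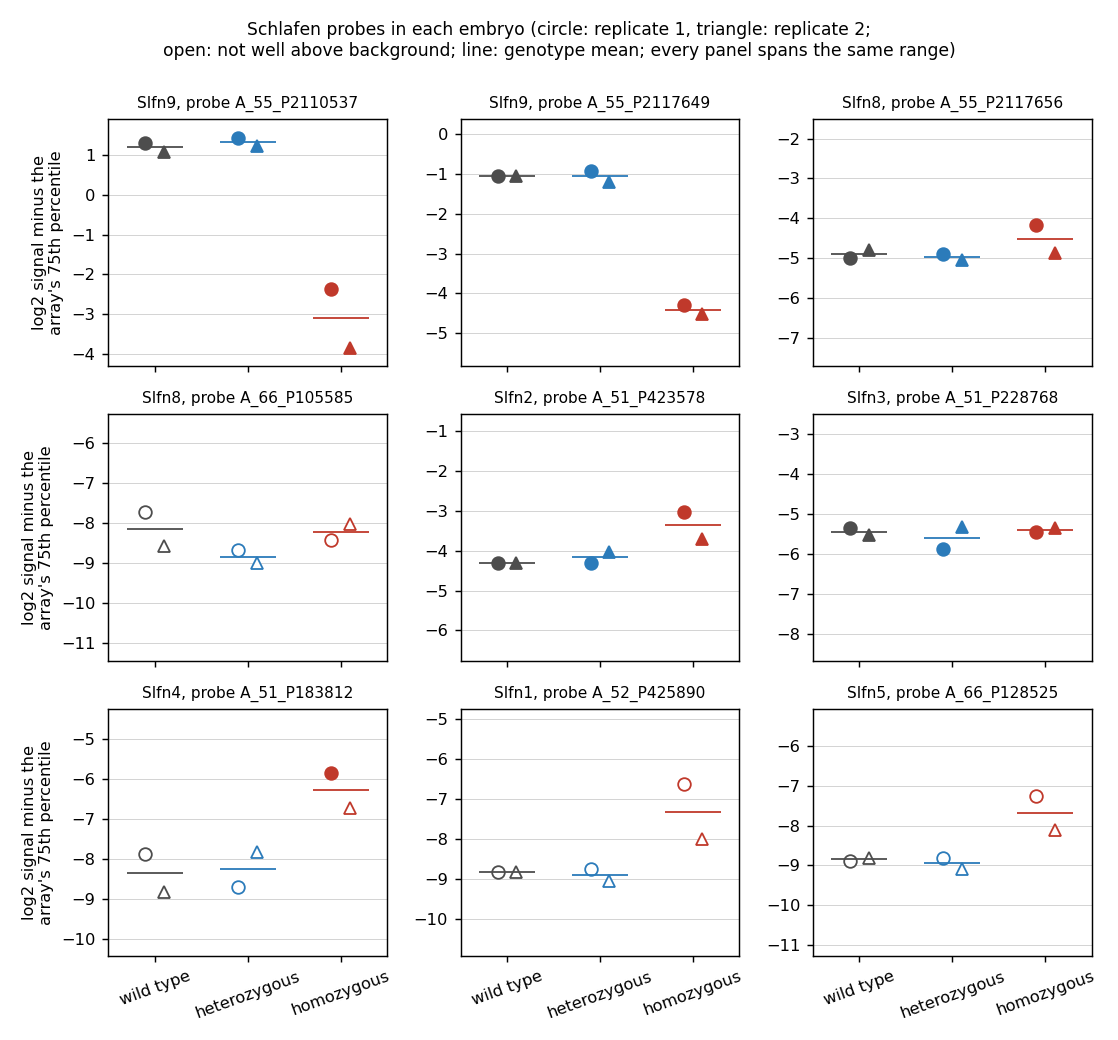
The log2 level of each of the 9 Schlafen probes, relative to the 75th percentile of its array, is plotted for each embryo, with circles for replicate 1, triangles for replicate 2, open symbols where a spot was not well above background and lines at genotype means. Both Slfn9 panels place the homozygous embryos far below the others, from -2.35 to -4.53, while the Slfn2 panel places them above, at -3.03 and -3.70.

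Across the array, 33 tested probes had a difference between homozygous and wild-type embryos at or below that of the first Slfn9 probe (-4.28), and 108 at or below that of the second (-3.35). A difference of that size at every probe of a gene was rarer. Of 4423 genes with at least 2 tested probes, Slfn9 was the only one at or below -3.35 at all of them. With a limit of -2, 4 such genes were found, chosen after their values were seen. These were Slfn9, Acyp1, an acylphosphatase (-3.10 and -3.96), Ylpm1, a nuclear protein phosphatase partner (-2.21 and -3.13), and Gcm1, a transcription factor of the placenta (3 probes, -2.20 to -3.22). Since Slfn9 was picked for this feature, the rank describes it and tests nothing.

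**Figure D2:**
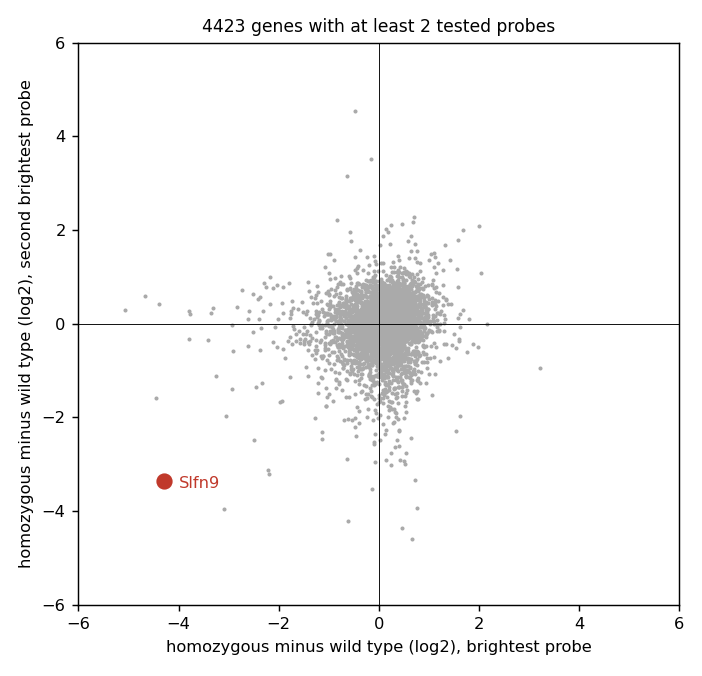
Each grey point is a gene with at least 2 tested probes, with the homozygous minus wild-type difference (log2) at its brightest probe on the x axis and at its second brightest on the y axis. Slfn9, in red at -4.28 and -3.35, lies in the lower left corner, while many genes with a large difference at 1 probe lie near 0 on the other axis.

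Heterozygous embryos were compared with wild type to ask whether a single altered allele moves the family. None of the 5 tested Schlafen probes was called, and no probe of any gene was (0% of 29832 probes, with 611 or 2.05% at an unadjusted p below 0.05 in limma). No Schlafen probe was below that unadjusted limit either, the smallest value being 0.50. Slfn9 differed by 0.14 ± 0.44 at the first probe and by -0.00 ± 0.16 at the second (adjusted p = 1.00 for both, limma). Slfn2 differed by 0.14 ± 0.23, Slfn8 by -0.08 ± 0.24 and Slfn3 by -0.15 ± 0.20. The arrays of the pair of genotypes overlapped at all 5 tested Schlafen probes, while 27.2% of all tested probes did not overlap. The errors pool the spread of all 6 arrays, the homozygous ones included. At the first Slfn9 probe the standard deviation was 1.05 in homozygous, 0.17 in wild-type and 0.14 in heterozygous embryos. From the 4 arrays of the genotypes compared, the standard errors of Slfn9 were 0.14 at the first probe and 0.13 at the second. With 2 arrays a genotype, a change within the errors given could not be seen.

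Slfn2, a short member that keeps T lymphocytes and monocytes quiescent, read highest in the homozygous embryos. Its log2 level at probe A_51_P423578 was -4.30 and -4.31 in wild-type, -4.31 and -4.03 in heterozygous, and -3.03 and -3.70 in homozygous embryos. On this scale both homozygous embryos lay above all others, embryo 1 the further. The signals before the percentile was subtracted were 48.6 and 49.7 in wild-type, 56.0 and 72.1 in heterozygous, and 96.1 and 55.8 in homozygous embryos. Homozygous embryo 2 thus lay above the heterozygous embryos only after that step. Against heterozygous embryos the difference was 0.80 ± 0.23, or 1.75-fold, and did not pass (adjusted p = 0.0526, limma). That call moves with the processing. Over the alternatives the difference ranged from 0.45 to 1.14 and the adjusted p from 0.00385 to 0.225. Without homozygous embryo 2 the difference was 1.14, and without homozygous embryo 1 it was 0.47. Against wild type Slfn2 was 0.94 higher, or 1.92-fold.

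Slfn8, the long member next to Slfn9, did not read lower in homozygous embryos. At probe A_55_P2117656 its log2 level was -4.99 and -4.79 in wild-type, -4.89 and -5.05 in heterozygous, and -4.17 and -4.88 in homozygous embryos. Homozygous embryo 1 stood above the other 5 and embryo 2 lay among the wild-type values. The signals were 30.2 and 35.6 in wild-type, 37.5 and 35.6 in heterozygous, and 43.6 and 24.5 in homozygous embryos. The lowest signal flagged well above background on an array was 9.86 to 12.6. A fall of the size read at Slfn9 would have ended below these, so it could not have been measured here. The difference against heterozygous embryos was 0.44 ± 0.24 (adjusted p = 0.217, limma), and against wild type it was 0.36. Without homozygous embryo 2 the first of these was 0.80, and without embryo 1 it was 0.09. The second Slfn8 probe, A_66_P105585, was not well above background on any array, with signals of 2.28 to 4.55.

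Slfn3, an intermediate member known from regulatory T cells and gut epithelium, read alike in the 3 genotypes. Its log2 level at probe A_51_P228768 was -5.36 and -5.53 in wild-type, -5.87 and -5.31 in heterozygous, and -5.45 and -5.34 in homozygous embryos. The 3 genotypes overlapped. The difference between homozygous and heterozygous embryos was 0.19 ± 0.20 (adjusted p = 0.516, limma), and that against wild type was 0.04. With the normexp background correction the first was 0.45 (adjusted p = 0.0149, limma), so its size depends on how the faint signal is corrected.

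**Figure D3:**
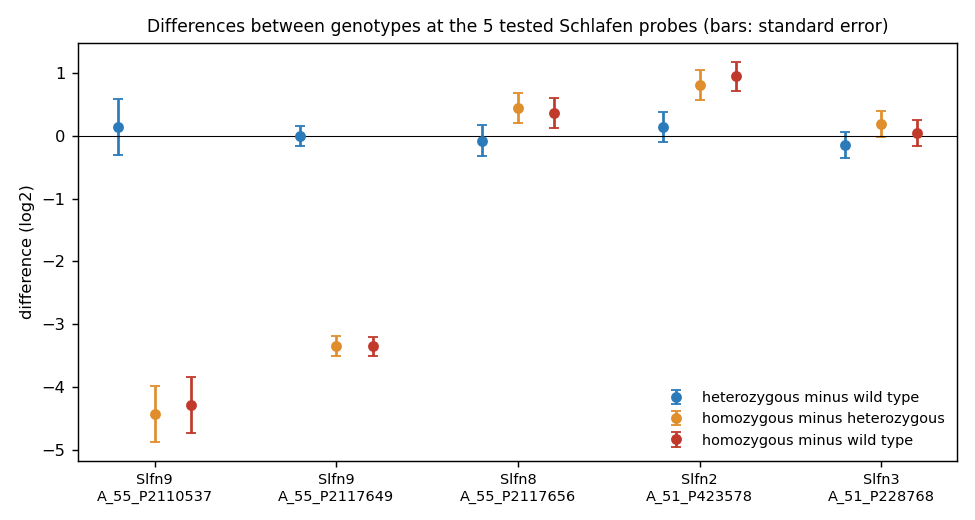
Differences between genotypes (log2) at the 5 tested Schlafen probes are plotted with standard errors, heterozygous minus wild type in blue, homozygous minus heterozygous in orange and homozygous minus wild type in red. The blue points lie between -0.15 and 0.14, and the largest differences with homozygous embryos are those of Slfn9, from -3.35 to -4.42.

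Between homozygous and heterozygous embryos the Slfn9 differences, given as a description, were -4.42 ± 0.44 and -3.35 ± 0.16. Of the 3 tested probes of other members, those of Slfn2, Slfn8 and Slfn3, none was called. Over all tested probes 23.3% were called in this comparison, 12.5% lower and 10.8% higher. The arrays of 2 of the 3 probes, those of Slfn2 and Slfn8, did not overlap between the genotypes and were higher in homozygous embryos, where 63.8% of all tested probes did not overlap (27.2% lower, 36.6% higher). Between homozygous and wild-type embryos, the comparison that chose the family, both Slfn9 probes lay below and the Slfn2 probe above the wild-type arrays without overlap. In that comparison 69% of all tested probes did not overlap (29.8% lower, 39.1% higher) and 28% were called (14.3% lower, 13.7% higher), and nothing is read from the members there. Both comparisons use the same 2 homozygous arrays. The count over all probes against heterozygous embryos was 1862 without heterozygous embryo 1, 2727 without heterozygous embryo 2 and 3555 without either wild-type embryo, against 6959 with all arrays. Without homozygous embryo 2 the differences against heterozygous embryos were 1.14 for Slfn2 and 0.80 for Slfn8. Without homozygous embryo 1 they were 0.47 and 0.09.

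The remaining members were at or below the limit of the arrays. Slfn1, the founding short member, gave signals of 2.11 and 2.18 in wild-type, 2.59 and 2.22 in heterozygous, and 7.94 and 2.83 in homozygous embryos, none of them well above background. Slfn5, a long member that can act in the nucleus as a repressor of interferon target genes, gave 2.03 and 2.19, 2.49 and 2.16, and 5.12 and 2.61, again none well above background. Slfn4, an intermediate member of myeloid cells, gave 4.10 and 2.16, 2.68 and 5.17, and 13.6 and 6.88. Only homozygous embryo 1 was well above background for Slfn4. No fold is given for it, since homozygous embryo 2 and the other 4 embryos were not well above background. These 3 genes and the second Slfn8 probe were not tested. Counting tested and untested probes, 5 of the 7 probes of members other than Slfn9 read above the wild-type mean in homozygous embryo 1 and 7 of 7 in homozygous embryo 2. The same count over all probes is not given, so no trend of the family is read from it. The percentile signal subtracted from each array was lower on the homozygous arrays (787 and 723) than on the wild-type arrays (957 and 985). For a like signal this lifts the log2 value. Slfnl1, a relative outside the list and never well above background, read 0.36 and 0.72 above its wild-type mean in homozygous embryos 1 and 2. The negative control spots also read higher on both homozygous arrays. The part of these array differences in the faint values was not tested.

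The 4 members of the short and intermediate classes share a promoter stretch, which was noticed when their sequences were laid side by side. Capitals mark ACTTCCTGG, and each line gives 27 bases along the plus strand, at chr11:83116737-83116763 for Slfn1, chr11:83065048-83065074 for Slfn2, chr11:83191279-83191305 for Slfn3 and chr11:83175104-83175130 for Slfn4 (GRCm38.p6).
Slfn1: atgtctcacACTTCCTGGagtgacatc
Slfn2: agggctttcACTTCCTGGagggtgaca
Slfn3: gatgacagaACTTCCTGGgggagggac
Slfn4: tccggttatACTTCCTGGagtgacgaa
The marked letters begin 74, 55, 42 and 73 bases before the start of the respective gene. On either strand they were found in 230 of 32851 promoter windows (0.7%) and in none of Slfn5, Slfn8 and Slfn9.

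Relatives outside the list were also on the array. Slfn14, a long member of red cells and platelets at the end of the same cluster, had log2 levels of -4.13 and -4.23 in wild-type, -4.85 and -3.95 in heterozygous, and -4.03 and -3.88 in homozygous embryos. Its homozygous values were within 0.30 of the wild-type mean. Slfnl1, a distant relative, gave signals of 2.03 to 2.58 and was never well above background.

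The genes on either side of the cluster were then examined, to show whether the low level of Slfn9 extended along the chromosome. Among the 5 nearest protein-coding genes with a tested probe on each side, 9 are described here (Lig3, Rffl, Rad51d, Nle1 and Unc45b before the cluster and Slfn14, Ap2b1, Rasl10b and 1700020L24Rik after it), with 12 probes in all. Between homozygous and wild-type embryos their differences ranged from -0.51 to 0.49, against -4.28 and -3.35 for Slfn9. In that comparison 1 probe of Lig3, a DNA ligase, rose (0.49, adjusted p = 0.0435, limma) and the other fell (-0.51, adjusted p = 0.0454, limma). Of all tested probes, 14.3% were called lower and 13.7% higher there. Against heterozygous embryos the 12 differences ranged from -0.38 to 0.49. None was called lower and 1 was called higher, where 12.5% and 10.8% of all tested probes were. This was the first Lig3 probe (0.49, adjusted p = 0.0491, limma), a call lost in 8 of 16 alternatives. The other Lig3 probe was -0.38 in that comparison (adjusted p = 0.105, limma). Heterozygous and wild-type embryos differed by -0.22 to 0.31 at these 12 probes, with none called. None of these 9 genes came near the size of the Slfn9 difference.

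Stat3 lies on the same chromosome, with 333 protein-coding genes between it and Slfn3. Over chromosome 11, 25.2% of 1843 tested probes were called between homozygous and wild-type embryos and 11.1% were called lower. Over all 22261 tested probes with a gene name these shares were 25.5% and 11.3%.

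**Figure D4:**
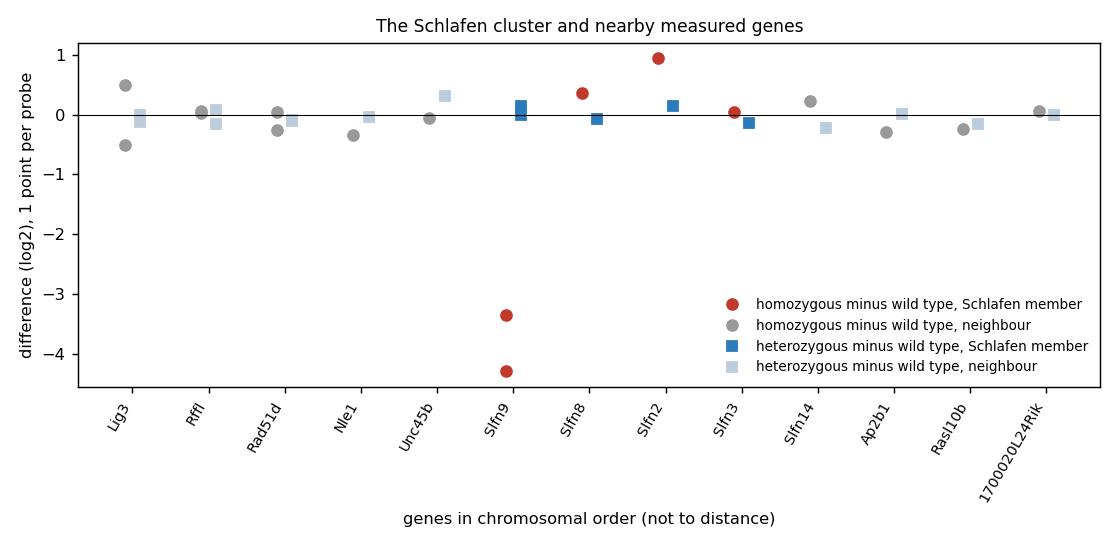
Differences (log2) at each tested probe of the Schlafen cluster and of 9 nearby genes are plotted in chromosomal order and not to distance, with circles for homozygous minus wild type and squares for heterozygous minus wild type. The Slfn9 circles lie at -4.28 and -3.35, while circles of the nearby genes lie between -0.51 and 0.49.

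To place the Slfn9 pattern among other genes, named genes were ranked by the Euclidean distance between their 6 log2 values and those of probe A_55_P2110537, each centred on its own mean, over 21188 probes. The 5 nearest were Eif3j1, a subunit of the translation initiation factor eIF3 (distance 0.574), Akap7, an anchor of protein kinase A (0.584), Acyp1 (0.596), the zinc finger gene Zfp345 (0.626) and Slc16a7, a monocarboxylate transporter (0.646). The distance between Slfn9's own probes was 1.47, the second probe having the smaller difference. Homozygous minus wild-type differences of the 5 ranged from -4.38 for Akap7 to -3.95 for Zfp345. The further probes of these genes differed among themselves, with -3.10 for the other Acyp1 probe, -0.61 for that of Eif3j1, and 0.18 and 0.42 for those of Akap7. Zfp345 and Slc16a7 had no further tested probe.

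The same ranking was made for Slfn2, over 21189 probes. The 5 nearest were Psmb9, an immunoproteasome subunit (0.0780), Hpn, a membrane serine protease (0.120), Arhgap9, a GTPase-activating protein of blood cells (0.133), Ncf4, a subunit of the phagocyte NADPH oxidase (0.159), and Mpo, the myeloperoxidase of neutrophils and their precursors (0.175). Each had its highest value in homozygous embryo 1 and the next in homozygous embryo 2, as Slfn2 did. The homozygous minus heterozygous differences were 0.73 to 0.84, against 0.80 for Slfn2. Both likenesses follow from how the genes were ranked and test nothing.

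**Figure D5:**
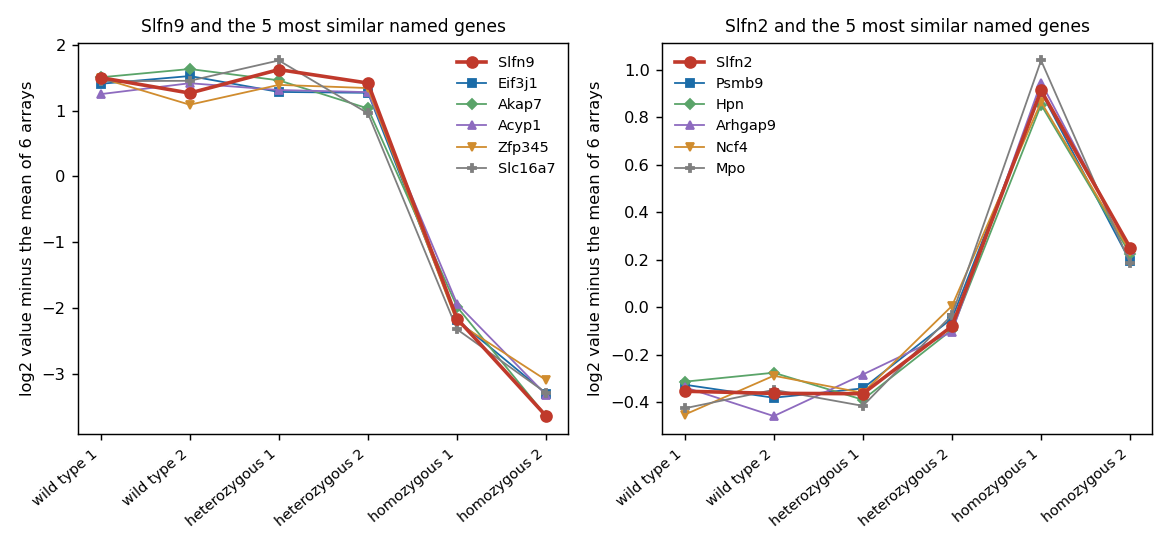
The log2 value minus its mean over 6 arrays is plotted by embryo for Slfn9 and the 5 genes most like it on the left, and for Slfn2 and the 5 most like it on the right. The left panel drops in both homozygous embryos, lowest in embryo 2, and the right panel is highest in homozygous embryo 1.

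Since many Schlafen genes are interferon targets, interferon genes were read from a list of 32, of which 28 had a tested probe, each gene by its brightest. No gene of the list was called between heterozygous and wild-type embryos. Between homozygous and heterozygous embryos 9 of 28 were called higher and none lower (32.1%). Of all tested probes 23.3% were called, 10.8% higher. The median difference was 0.81 against 0.09 over all probes. Gbp2, a guanylate-binding GTPase, rose by 1.21 ± 0.22 (adjusted p = 0.0133, limma). Bst2, which tethers enveloped virus particles, rose by 1.15 ± 0.24 (adjusted p = 0.0201), and Eif2ak2, the double-stranded RNA-activated kinase PKR, by 0.71 ± 0.15 (adjusted p = 0.0211). The summed level of the list, in multiples of the 75th percentile, was 7.60 and 10.0 in wild-type, 8.70 and 8.90 in heterozygous, and 19.7 and 12.4 in homozygous embryos. Homozygous embryo 1 was the highest here too. Over the alternatives other than leaving out 1 array, the genes called against heterozygous embryos numbered 3 to 20. The count of 9 was 0 without heterozygous embryo 1, 1 without heterozygous embryo 2, 4 without either wild-type embryo, 5 without homozygous embryo 1 and 19 without homozygous embryo 2.

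Of 15 tested interferon receptor and signalling genes, 5 rose and 1 fell between homozygous and heterozygous embryos (40%, beside 23.3% of all tested probes, median 0.39). Socs1, a feedback inhibitor of JAK kinases, rose by 0.88 ± 0.17 (adjusted p = 0.0169, limma), and Irf1, an activator of interferon target genes, by 0.87 ± 0.17 (adjusted p = 0.0166). Irf2, a repressor that shares sites with Irf1, fell by 0.68 ± 0.17 (adjusted p = 0.0333). Without heterozygous embryo 1 the count was 1 and without heterozygous embryo 2 it was 0, and without either wild-type embryo it was 3. Between homozygous and heterozygous embryos no gene of the interferon response list was called lower, where 12.5% of all tested probes were. A link between these genes and the level of Slfn9 was not tested.

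Markers of blood cells in which Schlafen genes are best known were summed in the same unit. The sums are linear and unweighted, so the brightest genes weigh most. These were S100a9 in the neutrophil list (log2 2.47 and 2.65 in wild-type embryos) and Hba-a1 in the erythroid list (6.66 and 6.50). The neutrophil list, 6 genes on the array, had summed levels of 11.3 and 12.4 in wild-type, 13.3 and 16.8 in heterozygous, and 33.0 and 19.7 in homozygous embryos, and 2 of 6 rose against heterozygous embryos (33.3%, beside 23.3% of all tested probes called and 10.8% called higher, the shares to set beside each list here). These were Elane, the neutrophil elastase (1.24 ± 0.22, adjusted p = 0.0128, limma), and Camp, cathelicidin (1.00 ± 0.28, adjusted p = 0.0478). Both calls were lost without heterozygous embryo 1, and without homozygous embryo 2 the count was 5. The Camp call was lost in 9 of 16 alternatives. The 8 macrophage markers on the array summed to 9.59 and 9.91 in wild-type and to 12.3 and 10.9 in homozygous embryos, with heterozygous embryos in the same range. Against heterozygous embryos 1 was called lower (Aif1), while the median difference of the list was 0.29. Of the other markers only Adgre1 read lower (-0.11, not called). The 8 T lymphocyte markers, 6 of them tested, summed to 2.63 and 2.30, 2.85 and 2.40, and 2.33 and 2.08, and 1 fell (Cd4). The 6 B lymphocyte markers summed to 1.05 to 1.37, 1.06 to 1.19 and 1.60 to 1.63, with 1 higher (Ebf1), while Ms4a1 was never well above background. The 8 erythroid markers summed to 132 to 145, 107 to 127 and 160 to 164, with 1 higher (Hba-a1), and of the 6 megakaryocyte markers none was called. These single calls were lost in 5 of 16 alternatives for Aif1, 7 for Cd4, 5 for Ebf1 and 10 for Hba-a1, which turned sign in 1 more. The embryos with the highest neutrophil sums, homozygous embryo 1 followed by homozygous embryo 2, also had the highest Slfn2 levels. The part of these cells in the Slfn2 values was not tested.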

How the data were processed

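Per the labels' protocols, total RNA was amplified, labelled with Cy3 and hybridised to 1-colour Agilent arrays. The scanner files, as the authors deposited them, give each spot's intensity from Feature Extraction 11.0.1.1, with the background subtracted within the array and no normalization across arrays, per the file headers. A second deposited table, in log2, had a median of 6.73 for each array, and its normalization is not given in the sources used here. It correlated at 0.995 or more with each array's own intensities.

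Each array had 44397 spots, of which 1377 controls were left out, as were spots flagged as outliers, and no gene spot was saturated. Spots of a probe were averaged. The log2 processed intensity minus the array's 75th percentile was fitted by genotype over all 6 arrays with limma 3.58.1 in R 4.3.3 (lmFit and eBayes, 3 residual degrees of freedom, tested on simulated data). A further 78 probes passed the background filter but had an outlier spot and were not tested. Genes were named from accessions through RefSeq GRCm38.p6 (27234 probes), and the array's own annotation is to mm9. Alternatives were normexp (offset 50), quantile and median normalization, the authors' table, other filters, fewer arrays and a replicate block. Those for gene lists and for genes outside the family were added after the data were seen. Family members, gene lists and the genes to be named by rank were chosen with earlier results of these data known. Named genes were all members, the 5 most like Slfn9 and the 5 most like Slfn2, the 5 neighbours on each side (1 of them is not reported here), and up to 3 called genes of a list with the smallest p. The number of arrays limits the precision.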

Additional observations from a re-analysis of the deposited data

How the results depend on the processing

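Over 15 differences of tested Schlafen probes, those between homozygous and wild-type embryos as a description only, 242 alternative values were computed. In 218 the direction and the side of the threshold were those of the main setting (62 of these are Slfn9 in homozygous embryos and show nothing on stability), 6 fell short of the threshold (all Slfn2 against wild type), 8 passed it and 10 turned sign. Slfn9 differences with homozygous embryos, whose low level chose the family and whose arrays every alternative reuses, lay between -5.16 and -3.51 at the first probe and between -3.48 and -2.07 at the second. The smallest sizes were with normexp. The sign changes were in differences near 0. With normexp and quantile normalization, Slfn3 was -0.0013 between homozygous and heterozygous and -0.042 between homozygous and wild-type embryos. On leaving out 1 array these ranged from -0.089 to 0.47 and from -0.041 to 0.13. Between heterozygous and wild-type embryos, leaving out 1 array gave -0.42 to 0.13 for Slfn3, -0.18 to 0.017 for Slfn8, -0.0059 to 0.28 for Slfn2 and -0.14 to 0.13 for the second Slfn9 probe. For 14 probes of list and neighbouring genes between homozygous and heterozygous embryos, 158 of 223 values kept both, 63 lost the call, 1 gained it and 1 turned sign (Hba-a1, -0.028 with normexp and quantile normalization).

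Schlafen probes called between homozygous and heterozygous embryos numbered, with the 2 Slfn9 probes counted in though they were chosen for it, 5 with normexp and the 75th percentile, 1 with the brightest probe per gene (fewer probes) and 2 to 4 on leaving out 1 array. All called probes numbered 14473 with normexp and the 75th percentile (77.8% higher against 46.3%, median of all probes 0.26 against 0.09), 3555 from the 4 arrays compared and 1862 to 9741 on leaving out 1 array. Against wild type they numbered 2039 to 10842 on leaving out 1 array (2430 without wild-type embryo 1 and 2039 without wild-type embryo 2), and with normexp 70.3% were higher against 48.8%. Between heterozygous and wild-type embryos they numbered 0 to 7. Where an array is left out, the lone array is assumed to vary like the other genotypes.

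Replicate numbers do not pair the embryos. Deviations of same-numbered arrays correlated at -0.00, -0.16 and 0.29. With the replicate number as a block, all calls were 0, 6633 and 8118 (heterozygous against wild type, homozygous against heterozygous, homozygous against wild type). Of the Schlafen probes, 0 were called in the first of these comparisons. In the second the 2 called were those of Slfn9, which are a description and no test. No slide, as inferred from the scan dates, held homozygous and other arrays, so no value within a slide could be had for them. The signal over background limits Slfn1, Slfn4, Slfn5 and the second Slfn8 probe.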
